A study of Mus musculus with 36 samples.

Results

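The nuclear-encoded genes of the mitochondrial respiratory chain were followed in bone marrow-derived macrophages (BMDMs) stimulated through Toll-like receptor 7. Members were all protein-coding genes whose mouse symbol starts with Nduf, Sdh followed by a to d, Uqcr, Cox4 to Cox8 or Atp5, with a mean count of at least 10 over the 36 libraries. Of 97 genes with such a symbol, 89 met the count minimum, out of 52636 genes in the data, and all 89 passed the filter on low counts of the tests. Classed by symbol, they comprised 36 subunits of complex I (7 core and 29 accessory) and 8 complex I assembly factors (Ndufaf). Complex II had 4 subunits and 4 assembly factors (Sdhaf). There were 8 genes of complex III, 13 of complex IV, 15 of ATP synthase, and Ndufa4. The last was named for complex I and is now known as a subunit of complex IV. A symbol does not by itself show that a gene encodes a structural subunit, and Cox7a2l and Atp5s were counted by symbol with complex IV and ATP synthase.

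RNA sequencing was done on 36 libraries from N4bp1 knockout (KO) and wild-type (WT) C57BL/6N mice, 3 libraries in each of 12 groups. Per the labels, each group held BMDMs of 3 individual mice, grown in M-CSF, the growth factor that turns marrow cells into macrophages. KO and WT cells were stimulated with R837, also called imiquimod, which activates TLR7, for 3 h or 7 h. In 4 further conditions of each genotype, the transcription blocker actinomycin D (ActD) was added after the 3 h of R837 and left for 0.5, 1, 2 or 4 h. All groups were stimulated, no unstimulated cells were analysed here, and the labels do not tie libraries of different groups to mice, so sharing of mice between conditions is not accounted for in the p-values.

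The respiratory chain passes electrons from NADH (complex I) and succinate (complex II) through complexes III and IV to oxygen, and the proton gradient so built drives ATP synthase. Most subunits are encoded in the nucleus and a few in mitochondrial DNA, so both genomes have to supply each of complexes I, III, IV and ATP synthase. Macrophages activated by Toll-like receptor ligands are known to lean on glycolysis and to use complex I and complex II in part for signalling by reactive oxygen species and succinate. The transcription factors NRF1, GABP (an ETS family factor) and YY1 are known to bind promoters of many of these genes.

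Promoter windows (250 bases before to 50 after the transcript start, RefSeq, GRCm38.p6) were at hand for 73 of the 89 members. The NRF1 motif (GCGCA, any base, then GCGC) was in 20 of the 73 (27.4%), against 11.7% of the 9639 genes tested that had a window and 5.19% of all 27025 windows. The ETS motif CCGGAAG was also in 20 members (27.4%, against 20.5% and 9.93%), and the YY1 motif AANATGGC in 19 (26.0%, against 10.4% and 6.96%). Both strands were searched. Such a match describes letters and is not a binding site. The 250 bases before the start are shown for Sdhd and Sdha, subunits of one complex that moved in opposite directions between genotypes, and for Cox6a1, a complex IV subunit. They are printed 5′ to 3′ on the strand of the gene with NRF1 and ETS matches in capitals (CTTCCGG is the ETS motif read on the other strand), and no matches overlap.
Sdhd (chr9:50603850-50604099, minus strand): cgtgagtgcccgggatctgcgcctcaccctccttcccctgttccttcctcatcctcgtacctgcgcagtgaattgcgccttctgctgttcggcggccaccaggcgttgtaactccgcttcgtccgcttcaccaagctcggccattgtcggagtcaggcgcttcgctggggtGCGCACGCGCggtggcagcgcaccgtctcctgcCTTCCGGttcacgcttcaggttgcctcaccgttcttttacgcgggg
Sdha (chr13:74350241-74350490, minus strand): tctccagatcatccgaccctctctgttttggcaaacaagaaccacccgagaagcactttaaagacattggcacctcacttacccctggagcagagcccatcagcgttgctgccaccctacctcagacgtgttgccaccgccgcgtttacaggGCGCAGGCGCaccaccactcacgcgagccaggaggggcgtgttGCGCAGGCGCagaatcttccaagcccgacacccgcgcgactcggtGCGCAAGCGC
Cox6a1 (chr5:115348959-115349208, minus strand): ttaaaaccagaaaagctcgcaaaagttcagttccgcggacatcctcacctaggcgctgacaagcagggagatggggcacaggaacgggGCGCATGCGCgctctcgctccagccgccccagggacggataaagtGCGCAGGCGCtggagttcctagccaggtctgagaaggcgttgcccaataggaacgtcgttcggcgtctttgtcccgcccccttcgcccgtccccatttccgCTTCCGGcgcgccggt
The Sdhd and Cox6a1 stretches hold both motifs, and the Sdha stretch holds 3 NRF1 matches and no ETS match.

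Libraries held 20271550 to 46107214 counts, of which the members took 0.880 to 1.45%. Macrophage markers summed to 20193 to 51445 CPM (counts scaled to equal library sizes by TMM) in every library. T and NK cell markers, of which 2 of 5 genes were tested, summed to at most 0.953 CPM. Neutrophil markers summed to 614 to 909 CPM in KO and 514 to 907 CPM in WT libraries. Dendritic cell markers summed to at most 34.8 CPM in KO and 17.98 CPM in WT libraries. The low T and NK cell sum does not show that other cell types were absent. N4bp1 averaged 84.1 ± 2.45 CPM in KO and 134 ± 12 CPM in WT at 3 h (SD, n = 3), and 87.7 ± 9.52 CPM in KO and 57.6 ± 5.11 CPM in WT after 4 h of ActD. The deleted part of N4bp1 is not given in the sources used here, so a count over the whole gene does not check the labels, and KO and WT below are the labelled genotypes. Summed markers of B and plasma cells were 35.7 to 56.9 CPM in KO and 9.48 to 19.0 CPM in WT libraries, those of fibroblasts 23.1 to 34.4 and 9.86 to 21.7 CPM, and those of proliferation 79.2 to 154 and 91.9 to 255 CPM. The part of these differences in the results below was not tested. In bulk samples, less transcript per cell and fewer cells of a type cannot be told apart.

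The members are short genes, with a median width of 1021 bases against 2869 bases over all genes tested, and their level followed a trend with gene length that differed between libraries. In each library the log2 deviation of every gene from its mean over the 36 libraries was set against its log2 width. The slope was 0.197, 0.148 and 0.0919 per doubling of length in KO and 0.0821, 0.108 and 0.0468 in WT at 3 h, and the median member deviated by -0.43, -0.31 and -0.13 in KO and by -0.051, -0.15 and 0.0099 in WT. Within each genotype at 3 h, the library with the steepest slope had the lowest members. The third WT library after 4 h of ActD stood furthest apart, with a slope of -0.31 and a median member at 0.74. Every comparison is therefore also given with the length trend of each library removed, and without single libraries where that matters.

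**Figure D1:**
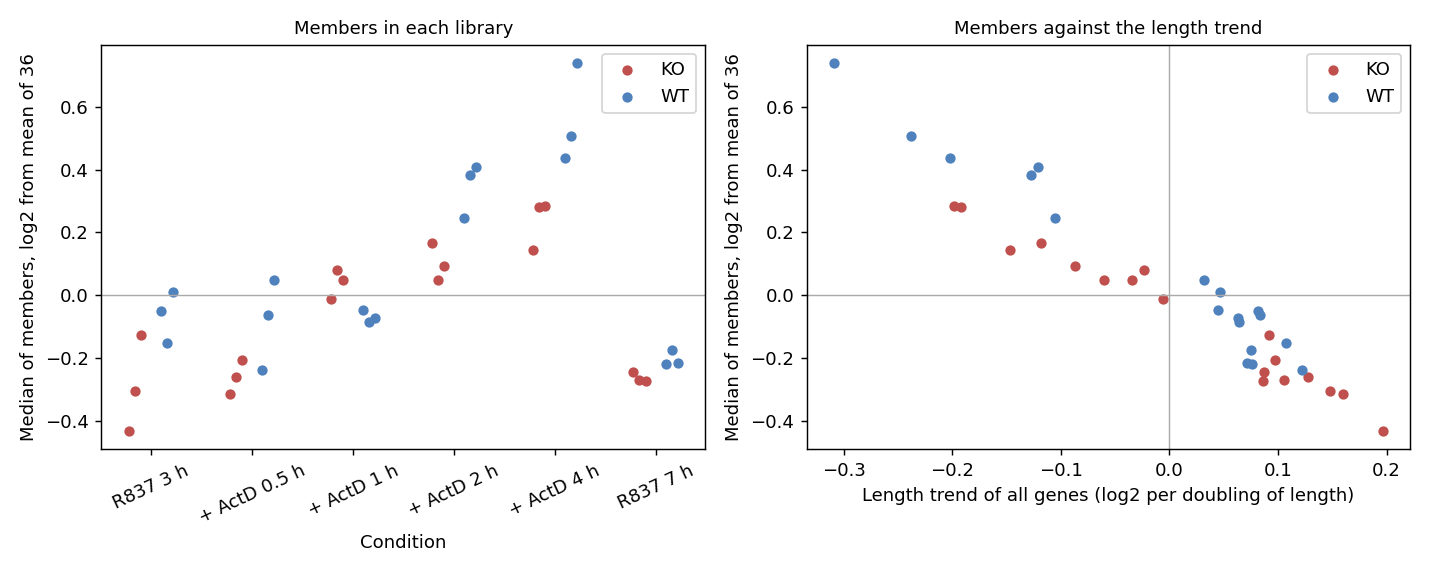
Left, median log2 deviation of the 89 members from their mean over 36 libraries (vertical axis) for each library by condition, KO (red) and WT (blue). Right, the same medians against the slope of all genes on log2 length in that library: libraries with a steep positive slope, such as KO at 3 h (0.197), hold low members (-0.43), and the third WT library at 4 h of ActD lies at the other end (-0.31 and 0.74).

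Per kilobase of gene width, levels spanned more than 3 orders of magnitude. The highest were Cox4i1 (1073 CPM per kb), the main isoform of complex IV subunit 4, Atp5e (822), the epsilon subunit of ATP synthase, Atp5b (622), its catalytic beta subunit, Atp5g3 (535), one of the genes for the c ring, and Cox6b1 (482). Atp5b, Atp5a1, Cox4i1, Atp5g3 and Atp5e together held 34.1% of all member counts. The lowest were Cox7c (0.489 CPM per kb), Atp5g1 (0.668) and Sdhaf3 (0.731). Among paralogous isoforms, Cox6a1 was at 242 CPM per kb and the muscle isoform Cox6a2 at 4.91, and Cox7a2 was at 307 and the muscle isoform Cox7a1 at 16.4. The assembly factors all lay below 35 CPM per kb, from 0.731 (Sdhaf3) to 32.5 (Sdhaf4). The 4 subunits of complex II were at 224 (Sdhd), 159.8 (Sdhb), 68.5 (Sdhc) and 53.4 CPM per kb (Sdha). These levels describe genes chosen in part by their count and were not tested.

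Low values among them are not read as low expression where a gene has near-identical copies. Of the 89 members, 48 shared at least one 50-base word of their main transcript with another gene, 33 of them with a pseudogene, and 59 shared under 10% of their words. Sdhaf1 shared 69.0%, Cox7c 53.0%, Atp5h 50.5%, Atp5o 50.3% and Uqcrb 43.4%, so counts of these genes are uncertain where reads could be split (Atp5h was chosen after its values were seen). Cox4i1 shared 12.2% with the overlapping gene Emc8, and the strand setting of the counting is not given. Cox7c (mean count 14.8) lay just inside the count minimum, and Cox6b2 (7.94), the testis isoform of Cox6b1, just outside. The other genes outside were Cox4i2 (7.42), Atp5l (2.36), Ndufa4l2 (1.61), Atp5g2 (0.306), Cox8b, Cox7b2 and Cox8c, the last 3 with no count, and Atp5g2 and Atp5l shared 100% and 84.9% of their words.

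**Figure D2:**
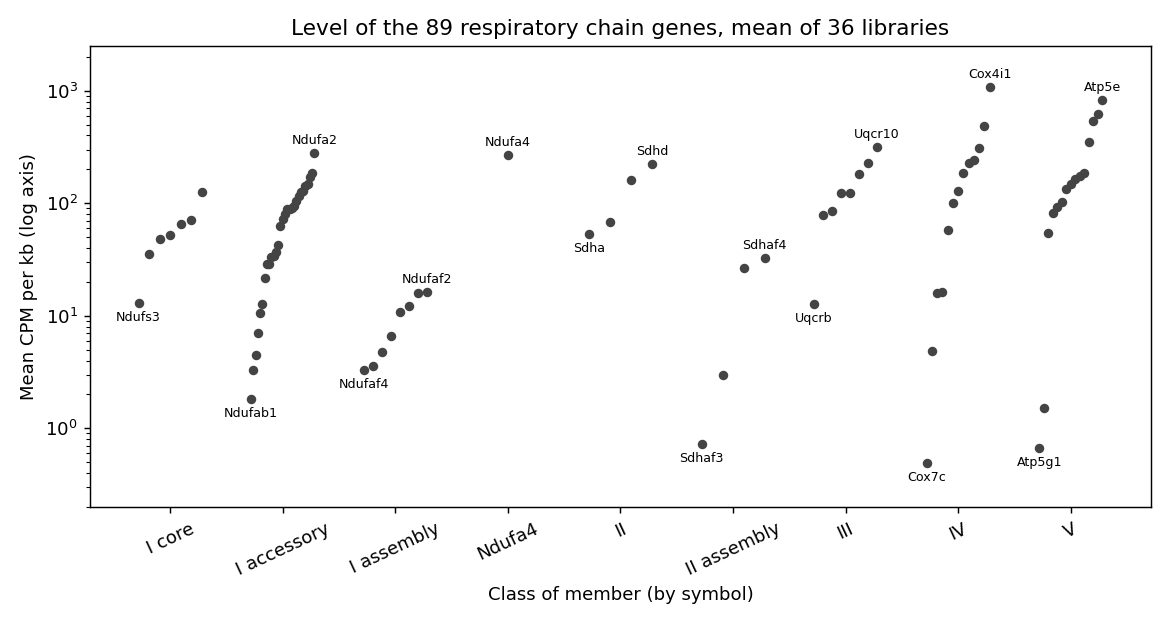
Mean CPM per kb over 36 libraries (log axis) of each of the 89 members by class, with the highest and lowest of most classes named. Cox4i1 (1073) and Atp5e (822) stand at the top, and the assembly factors of complexes I and II lie below the highest subunits of every complex.

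At 3 h of R837, KO macrophages held less transcript of many members than WT macrophages. Of the 89 members, 40 fell and 1 rose in KO (edgeR quasi-likelihood test, Benjamini-Hochberg adjusted p below 0.05), where 12.6% of all 13748 genes tested fell and 15.2% rose, so 44.9% of members fell. The median member was at -0.24 on the log2 scale and the median gene at 0.0055. Falls were spread over all complexes, with 16 of 29 accessory and 3 of 7 core subunits of complex I, 2 of 4 of complex II, 4 of 8 of complex III, 6 of 13 of complex IV, 7 of 15 of ATP synthase, and Ndufa4. Of the 12 assembly factors 1 fell, Ndufaf7.

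Ndufa4 read 97.2, 111 and 137 CPM in KO, against 144, 137 and 169.5 CPM in WT at 3 h. Every KO library lay below every WT library, the nearest pair being close (log2 fold change -0.39 ± 0.11, SE, edgeR adjusted p = 0.00602). Uqcr11, a small subunit of complex III, read 56.6, 60.4 and 66.2 CPM in KO, against 86.5, 73.4 and 88.8 CPM in WT, again without overlap (log2 fold change -0.44 ± 0.10 (SE), edgeR adjusted p = 0.000687). Ndufs1, the core subunit of complex I with the most iron-sulfur clusters, fell by less but with less spread (log2 fold change -0.30 ± 0.066 (SE), edgeR adjusted p = 0.000794). Cox7a1 read 5.16, 6.19 and 7.90 CPM in KO, against 9.30, 8.33 and 9.79 CPM in WT, the first KO library being lowest (log2 fold change -0.53 ± 0.16 (SE), edgeR adjusted p = 0.0104).

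Sdha, the flavoprotein that oxidises succinate, was the member that rose. It read 156, 144 and 135 CPM in KO, against 126, 129 and 118 CPM in WT at 3 h, so all KO libraries lay above all WT libraries (log2 fold change 0.22 ± 0.075 (SE), edgeR adjusted p = 0.025). Of its partner subunits, Sdhd, a membrane anchor, fell and read 200.1, 211 and 251 CPM in KO, against 254, 253 and 268 CPM in WT with no overlap (log2 fold change -0.23 ± 0.074 (SE), edgeR adjusted p = 0.0192). Sdhb, the iron-sulfur subunit, passed with overlapping groups (log2 fold change -0.18 ± 0.068 (SE), edgeR adjusted p = 0.0453), and stood at 0.0049 under ribosomal scaling. Sdhc, the other anchor, was at -0.067 ± 0.057 and did not pass. Atp5b, the most counted member, also passed (log2 fold change -0.14 ± 0.050 (SE), edgeR adjusted p = 0.027), and stood at 0.039 under ribosomal scaling. The Sdha and Sdhd calls were each lost without the first KO, the second KO or the third WT library, and Sdhd, Sdhb and Atp5b did not pass with the length trend removed or when only the 6 libraries compared were fitted; those of Ndufa4 and Cox7a1 were lost without the first KO or the third WT library. Those of Sdhb and Atp5b were lost without the first KO, the first WT or the third WT library, and that of Sdhb also without the second KO library.

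The 3 h counts rested on few libraries. As counts of called members against 41, there were 7 without the first KO library, 22 without the second KO library, 12 without the third WT library, and 1 without the first KO and the third WT libraries together (chosen after seeing the data), with a median member at -0.12. With the length trend removed 18 fell and 2 rose, and 19 of these 20 were called the same way before. Before that removal, 47.5% of the 61 members under 1500 bases fell, against 17.8% of 3021 other genes of that length. Scaling to genes named as ribosomal proteins or elongation factors (symbols starting with Rpl, Rps, Eef1 or Eef2) moved the median of all genes by 0.19. It left 5 members higher and 6 lower. The genes scaled to took 0.828 to 0.932% of counts in KO and 0.985 to 1.06% in WT at 3 h, so their share was also lower in KO. The median member lay 0.25 below the median gene, against 0.24 as reported. Such a scaling moves all genes of a library together, so it hardly changes this gap and does not test it. The shares of all genes given for 3 h hold for TMM scaling and not for the alternatives.

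The same comparison at the 4 ActD times and at 7 h differed in size and, at 1 h of ActD, in direction. After 0.5 h of ActD 21 members fell and 0 rose (12.7% of all genes fell), after 2 h 38 fell and 1 rose (15.4% of all genes fell), and after 4 h 54 fell and 1 rose (17.9% of all genes fell and 17.7% rose). The median member was at -0.18, -0.24 and -0.34 at these times. After 1 h of ActD 0 fell and 2 rose (17 had an unadjusted p below 0.05), among them Ndufaf3 (a complex I assembly factor, 0.26 ± 0.088), where 9.92% of all genes fell and 7.51% rose. There the median member was at 0.11, or at -0.018 under ribosomal scaling, which moved the median gene by -0.13, and 0 members passed with the length trend removed. There were 0 calls without the first KO, the second WT or the third WT library, 1 without the third KO library, 5 with no filter and 19 when only the 6 libraries compared were fitted. At that time the length slopes of the libraries ran from -0.035 to -0.0055 in KO and from 0.044 to 0.064 in WT, the reverse of the order at 3 h.

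Over the 6 conditions, 16 members (18%) fell in 4 or more and 32 (36%) in none, where 8.63% and 64.4% of all genes tested did. The 3 that fell in 5 (3.37%, against 3.03% of all genes) were Ndufb8, Ndufv3 and Ndufa9, accessory subunits of complex I (Ndufa9 was chosen after its values were seen). With the length trend removed 12 members (13.5%) fell in 4 or more, where 8.31% of all genes did. The 6 comparisons use separate libraries but one estimate of the spread.

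After 2 h of ActD the member with the largest fall was Sdhaf3, which helps mature the iron-sulfur subunit of complex II, at low level. It read 2.67, 2.08 and 2.94 CPM in KO, against 4.96, 4.66 and 4.87 CPM in WT (log2 fold change -0.91 ± 0.16 (SE), edgeR adjusted p = 3.8e-05), and all KO libraries lay below all WT libraries. Ndufa4 read 176, 160.4 and 173 CPM in KO, against 212, 243 and 244 CPM in WT (log2 fold change -0.46 ± 0.11 (SE), edgeR adjusted p = 0.00104). Sdha read 177, 181 and 171 CPM in KO, against 156, 141 and 143 CPM in WT and rose (log2 fold change 0.26 ± 0.075 (SE), edgeR adjusted p = 0.00659). These 3 calls held under all 13 alternatives tried at 2 h.

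**Figure D3:**
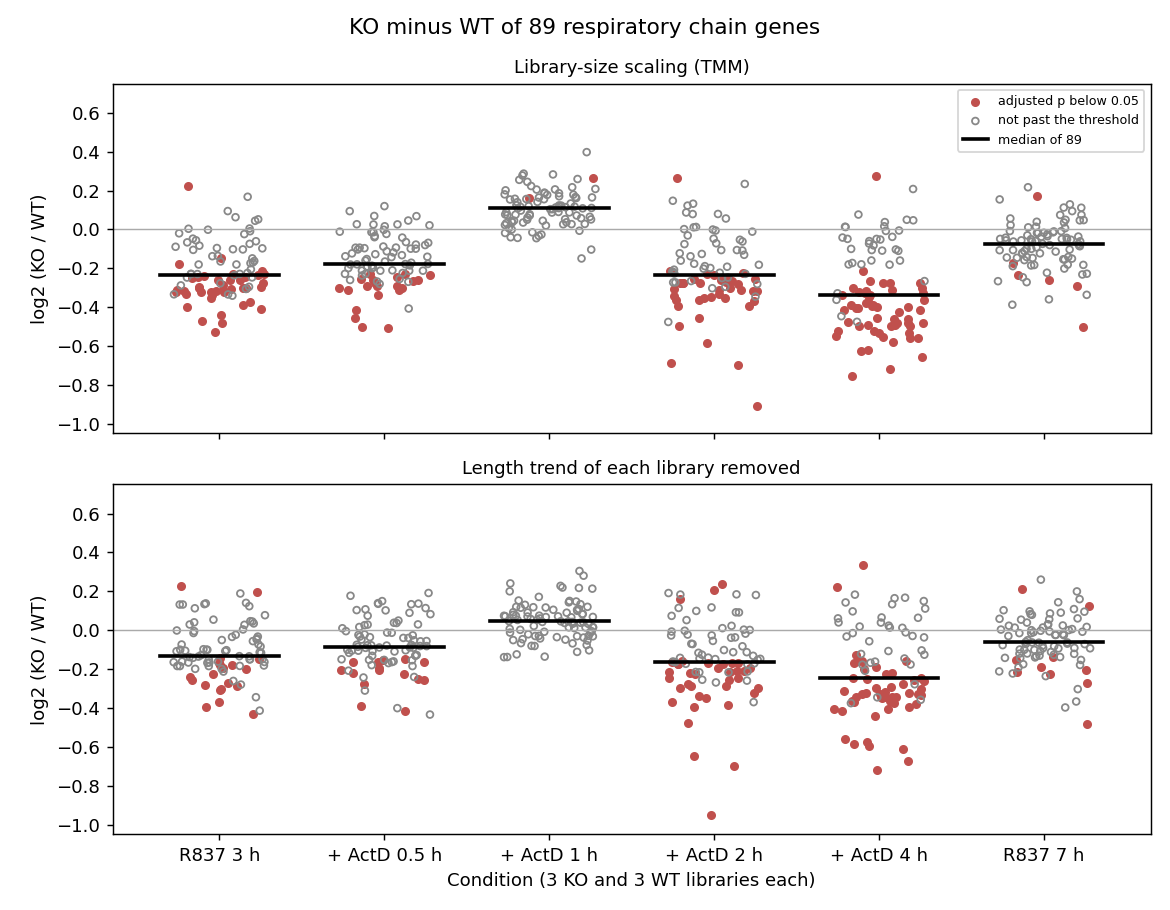
log2 (KO / WT) of each of the 89 members (points) in 6 conditions, as tested (above) and with the length trend of each library removed (below); red points passed an adjusted p of 0.05 and bars are medians. In both panels the median lies below 0 in all conditions but 1 h of ActD, and at 4 h of ActD most members are red in both panels (55 and 52).

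The difference was largest after 4 h of ActD. Ndufa4 read 178, 190.3 and 184 CPM in KO, against 262, 276 and 369 CPM in WT, with the highest KO library well below the lowest WT library (log2 fold change -0.72 ± 0.11 (SE), edgeR adjusted p = 1.3e-06; -0.56 with the length trend removed). Cox7a1 read 9.19, 8.75 and 11.2 CPM in KO, against 13.4, 14.4 and 21.4 CPM in WT (log2 fold change -0.75 ± 0.15 (SE), edgeR adjusted p = 0.000102). Ndufv3, an accessory subunit beside the NADH-binding site, read 69.6, 83.3 and 75.8 CPM in KO, against 101, 109 and 142 CPM in WT (log2 fold change -0.62 ± 0.085 (SE), edgeR adjusted p = 3.32e-07). In all 3 genes the third WT library was the highest, and the groups did not overlap without it either.

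Uqcr10, a small complex III subunit, differed by -0.53 ± 0.093, Ndufb8 by -0.56 ± 0.10, Uqcr11 by -0.49 ± 0.10, Atp5o, the peripheral stalk subunit OSCP, by -0.46 ± 0.083 and Cox6b1 by -0.46 ± 0.085 on the log2 scale (log2 fold change ± SE). Ndufa4, Cox7a1, Ndufv3, Ndufaf7 and these 5 genes passed under all 14 alternatives tried at 4 h. Sdha read 223, 210.4 and 217 CPM in KO, against 191, 187 and 159.7 CPM in WT and was again the one member that rose (log2 fold change 0.27 ± 0.075 (SE), edgeR adjusted p = 0.00385), a call lost without the third WT library. By class, 22 of 29 accessory and 3 of 7 core complex I subunits fell, 5 of 8 of complex III, 7 of 13 of complex IV, 8 of 15 of ATP synthase and 6 of 12 assembly factors.

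Without the third WT library 35 members were called at 4 h of ActD, and without it and the first KO library (chosen after seeing the data) 17, of which 16 fell. With the length trend removed 50 fell and 2 rose, and 50 of these 52 had been called the same way. Before that removal, 63.9% of the 61 members under 1500 bases fell at 4 h, against 27.3% of 3021 other genes of that length. These shares were 42.6% and 16.2% at 2 h and 24.6% and 13.2% at 0.5 h. Under ribosomal scaling, which moved the median gene by 0.27, 20 fell and 15 rose at 4 h. The genes scaled to took 1.01 to 1.10% of counts in KO and 1.14 to 1.37% in WT at 4 h. After 1 h of ActD their order was the reverse, at 1.03 to 1.09% in KO and 0.986 to 1.01% in WT. The shares of all genes given for 0.5, 2 and 4 h of ActD hold for TMM scaling and not for the alternatives. At 2 h 34 fell and 3 rose with the length trend removed and 13 fell and 6 rose under ribosomal scaling (median gene moved by 0.15), and 19 were called without the second KO, 17 without the second WT and 15 without the third WT library. At 0.5 h 15 fell with the length trend removed and 7 under ribosomal scaling (median gene moved by 0.12), with 0 higher in both, and 8 were called without the first KO library and 41, 12 and 4 without the first, the second and the third WT library, and 14 without the second KO library, and 2 when only the 6 libraries compared were fitted.

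At 7 h of R837 few members differed between genotypes. Of the 89, 5 fell and 1 rose, where 15.1% of all genes fell and 15.5% rose, and the median member was at -0.074. Cox7a1 (log2 fold change -0.50 ± 0.17 (SE), edgeR adjusted p = 0.0185), Ndufb8 (-0.29 ± 0.10), Ndufb5, an accessory complex I subunit (-0.26 ± 0.079), Ndufv3 (-0.23 ± 0.086) and Ndufa9 (-0.17 ± 0.067) fell. Uqcrfs1, the Rieske iron-sulfur protein of complex III, rose and read 126, 122 and 118 CPM in KO, against 109, 106 and 111 CPM in WT, with no overlap (log2 fold change 0.17 ± 0.055 (SE), edgeR adjusted p = 0.0152). Calls were lost without single libraries: Cox7a1 without the second KO or the second WT, Uqcrfs1 without the first KO or the second WT, Ndufb5 without the second KO, Ndufb8 without the third KO or the first or the second WT, and Ndufv3 without any KO, the first WT or the third WT library. Ndufa4 read 120.4, 119 and 125 CPM in KO, against 138, 142 and 139 CPM in WT, also without overlap, and did not pass (log2 fold change -0.20 ± 0.11, edgeR adjusted p = 0.159).

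Members took 0.894 to 0.923% of counts in KO and 0.995 to 1.01% in WT at 7 h, and the 2 groups did not overlap in this share. It is a share of raw totals, while the tests used TMM scaling. The TMM factors at 7 h also differed, at 0.951 to 0.956 in KO and 1.018 to 1.024 in WT. When only the 6 libraries at 7 h were fitted, 31 members fell and 6 rose, where 23.7% of all genes fell and 24.9% rose. Counts were 3, 2 and 4 without the first, the second and the third KO library and 3, 2 and 4 without the first, the second and the third WT library, 8 lower and 2 higher with the length trend removed (the 6 called before among them), and 14 lower and 0 higher under ribosomal scaling. Shares of all genes are not set beside these counts.

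AA467197 is the mouse relative of Ndufa4 whose human counterpart, C15orf48, can take the place of NDUFA4 in complex IV; it was on the list of assembly factors and carriers. It read 104, 103 and 102 CPM in KO, against 54.3, 48.2 and 57.6 CPM in WT at 7 h, a clear separation (log2 fold change 0.95 ± 0.11 (SE), edgeR adjusted p = 2.68e-09), and 24.1, 27.2 and 31.5 CPM in KO, against 17.0, 20.7 and 20.2 CPM in WT at 3 h (log2 fold change 0.51 ± 0.12 (SE), edgeR adjusted p = 0.00118). After 4 h of ActD the genotypes overlapped in AA467197 (log2 fold change 0.19 ± 0.11 (SE), edgeR adjusted p = 0.2), while Ndufa4 was lower in KO as given above. Averaged over all libraries Ndufa4 was at 266 CPM per kb and AA467197 at 42.8 CPM per kb.

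**Figure D4:**
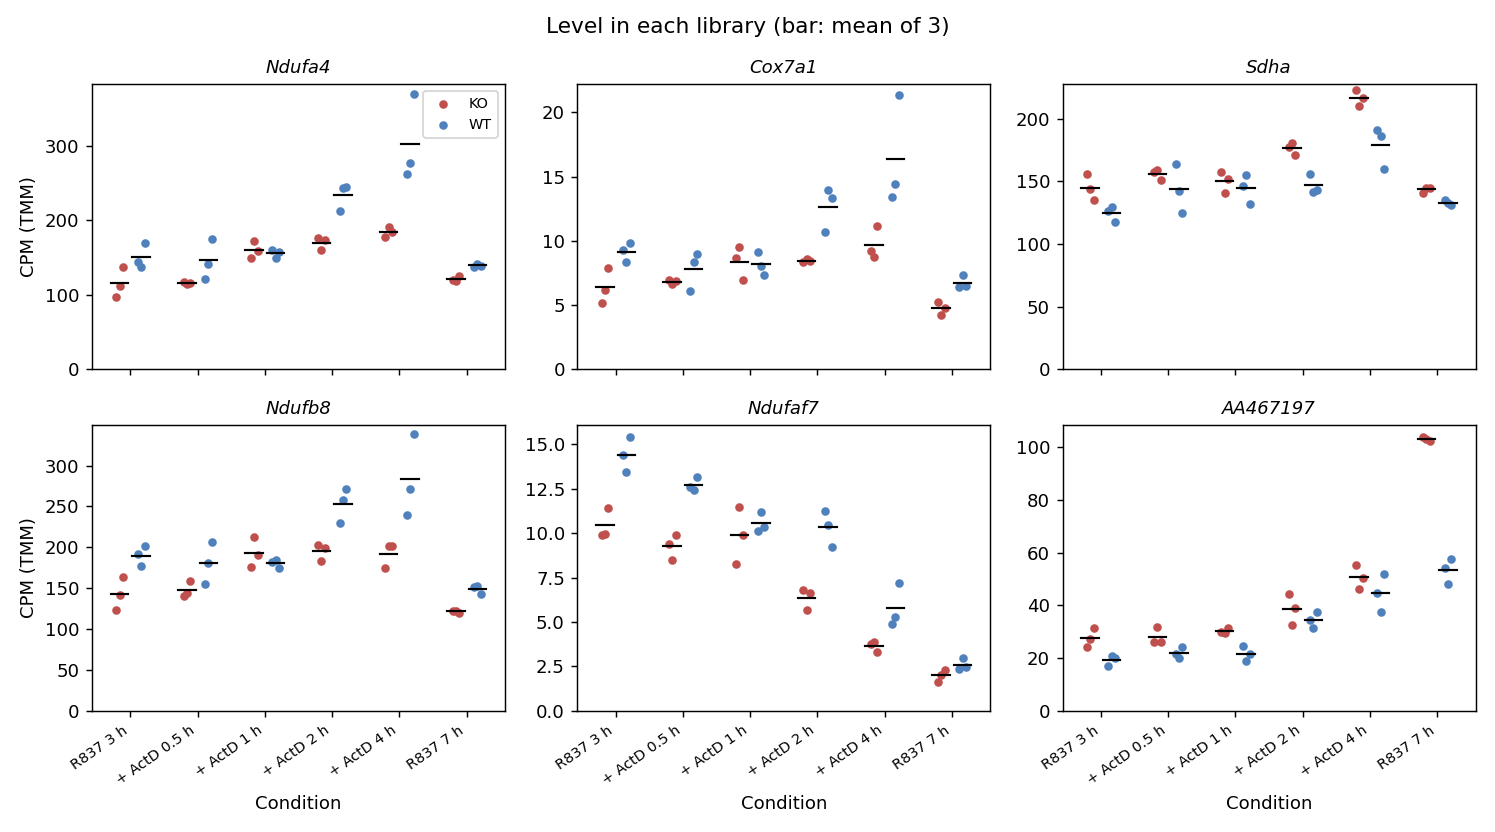
TMM-scaled CPM in each library (points) and means of 3 (bars) for 5 members and AA467197 by condition, KO (red) left of WT (blue), axes from 0. Ndufa4, Cox7a1 and Ndufb8 lie lower in KO at 2 and 4 h of ActD, Sdha higher, Ndufaf7 is lowest in both genotypes at 7 h, and AA467197 is highest in KO at 7 h (102 to 104 CPM).

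Other mitochondrial genes were counted on fixed lists. Of 46 further assembly factors and electron carriers tested, 13 fell and 1 rose in KO at 3 h, where 12.6% of all genes fell and 15.2% rose. At 7 h 8 fell and 6 rose, near the 15.1% and 15.5% of all genes. The medians were -0.16 at 3 h and -0.038 at 7 h. Tmem126b, a complex I assembly factor, fell at both (-0.49 ± 0.10 and -0.74 ± 0.10), as did Uqcc3, a complex III assembly factor (-0.53 ± 0.10 and -0.33 ± 0.10). Of 10 mitochondrially encoded subunits tested, 1 rose at 3 h, mt-Nd5 (0.37 ± 0.13, edgeR adjusted p = 0.033), 0 fell, and none passed at 7 h or at 4 h of ActD, where 1 and 0 had an unadjusted p below 0.05. These genes held 0.0337 to 0.0769% of counts, and their mean log2 CPM ran from -1.06 (mt-Atp6) to 7.22 (mt-Nd1). Whether reads of these genes were lost in alignment or counting was not tested. The few calls are therefore not read as a lack of change.

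Of 14 regulators of mitochondrial biogenesis tested, 2 rose and 1 fell in KO at 3 h, where 15.2% of all genes rose and 12.6% fell. At 7 h 6 rose and 0 fell, where 15.5% of all genes rose and 15.1% fell. Gabpa, the DNA-binding subunit of GABP, rose at both (0.27 ± 0.078 and 0.40 ± 0.080), Gabpb1, its partner, at 7 h (0.31 ± 0.085), and Pprc1, a coactivator, at 3 h (0.42 ± 0.11). Of 19 tricarboxylic acid cycle genes tested, 7 fell and 1 rose at 3 h, where 12.6% of all genes fell and 15.2% rose, and 3 fell and 3 rose at 7 h, near the shares of all genes. Acod1, which makes itaconate, an inhibitor of succinate dehydrogenase, rose at both (0.58 ± 0.070 and 0.86 ± 0.070), Idh2 fell at both (-0.21 ± 0.060 and -0.46 ± 0.063), and Fh1 fell at 3 h (-0.39 ± 0.085). All values are log2 fold changes ± SE.

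Between 3 h and 7 h of R837, the share of members lower at 7 h was near that of all genes in WT and below it in KO. The share higher at 7 h was below that of all genes in both genotypes. How the calls split in KO and WT depended on the scaling. In KO 16 of 89 members (17.98%) were lower and 14 (15.7%) higher at 7 h than at 3 h, where 31.7% of all genes were lower and 28.7% higher. In WT 29 (32.6%) were lower and 4 (4.49%) higher, where 30.7% and 27.3% of all genes were. The median member was at -0.0013 in KO and -0.15 in WT. With the length trend removed 15 were lower and 20 higher in KO and 21 and 9 in WT, and under ribosomal scaling 28 and 9 in KO and 17 and 9 in WT. The split was 18 lower and 8 higher in WT under RLE scaling. The shares of all genes given here hold for TMM scaling only.

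Ndufaf7, a methyltransferase needed for complex I assembly, changed most. In KO it read 1.65, 2.02 and 2.32 CPM at 7 h, against 9.91, 9.97 and 11.4 CPM at 3 h (log2 fold change -2.39 ± 0.15 (SE), edgeR adjusted p = 1.43e-17). In WT it read 2.33, 2.97 and 2.46 CPM at 7 h, against 14.4, 13.5 and 15.4 CPM at 3 h (log2 fold change -2.47 ± 0.13 (SE), edgeR adjusted p = 3.16e-19). The times did not overlap in either genotype, and both calls passed under all 14 alternatives.

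Other members that fell in both genotypes were the muscle isoforms Cox6a2 (log2 fold change -0.84 ± 0.17 in KO and -0.53 ± 0.16 in WT) and Cox7a1 (-0.42 ± 0.17 and -0.44 ± 0.15), Sdhaf4, a complex II assembly factor (-0.61 ± 0.12 and -0.52 ± 0.11), and Ndufaf2, a complex I assembly factor (-0.45 ± 0.15 and -0.51 ± 0.14). Sdhaf2, which helps attach FAD to Sdha, was higher at 7 h in both (0.43 ± 0.095 in KO and 0.34 ± 0.094 in WT). In KO Ndufs4, an accessory complex I subunit (0.59 ± 0.11), Atp5f1, the peripheral stalk subunit b (0.34 ± 0.089), and Atp5b (0.31 ± 0.050) were also higher, and in WT Ndufaf1, a complex I assembly factor (0.50 ± 0.10), and Ndufab1, the mitochondrial acyl carrier protein (0.40 ± 0.13), were. The WT calls of Cox6a2 and Cox7a1 were lost without the third WT library at 3 h, and that of Ndufab1 without the first. The KO call of Cox7a1 was lost without the second or the third KO library at 7 h or the third KO library at 3 h.

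The genotype difference of this change passed for 2 members, Atp5b and Uqcrfs1, where 5.45% of all genes had a higher and 6.84% a lower change in KO. Atp5b read 1244, 1208 and 1249 CPM at 7 h and 930.2, 1014 and 1049 CPM at 3 h in KO, and 1157, 1163 and 1195 and 1115, 1075 and 1119 CPM in WT, so the times were apart in both genotypes and further apart in KO (difference of log2 changes 0.22 ± 0.071, edgeR adjusted p = 0.0326). For Uqcrfs1 the difference was 0.23 ± 0.078 (edgeR adjusted p = 0.043). Without 1 library the count ran from 0 to 10, being 0 without the first or second library of KO or WT at 7 h, the first of KO at 3 h, or the first or the third of WT at 3 h, 1 without the third of KO or WT at 7 h or the second of KO at 3 h, and 10 without the third of KO at 3 h. It was 0 under RLE scaling and 1, Atp5b, with the length trend removed.

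Under ActD the share of most members in the RNA rose. Slopes of log2 CPM over 0, 0.5, 1, 2 and 4 h of ActD were positive and passed for 74 of 89 members in KO and 78 in WT, where 32.7% and 35.8% of the 13378 genes tested in this model rose. They were negative and passed for 3 members in KO and 2 in WT, where 35.9% and 35% of all genes fell. Without a spike-in these are slopes relative to the average transcript: when transcription is blocked, a transcript that decays more slowly than the average takes a growing share. The median member gained 0.15 per hour in KO and 0.20 in WT.

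Complex IV had the highest medians apart from the single gene Ndufa4, at 0.17 per hour in KO and 0.26 in WT, and the core subunits of complex I the lowest among subunits, at 0.052 and 0.086. Cox6c, a small complex IV subunit, rose most in both genotypes. Its CPM was 145, 153 and 163 after 4 h of ActD and 63.5, 72.1 and 89.2 without ActD in KO (slope 0.26 ± 0.028 SE), and 179.5, 191 and 242 and 82.2, 76.7 and 93.5 in WT (slope 0.36 ± 0.028 SE). The times did not overlap in either genotype. Uqcrb (0.26 ± 0.031), Atp5j, coupling factor 6 of ATP synthase (0.25 ± 0.024), and Cox7b (0.24 ± 0.033) followed in KO, and Cox7b (0.32 ± 0.032), Ndufa4 (0.31 ± 0.033) and Atp5j (0.29 ± 0.023) in WT.

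The members that fell under ActD, before the length trend was removed, were assembly factors. Ndufaf7 read 3.78, 3.86 and 3.34 CPM after 4 h of ActD and 9.91, 9.97 and 11.4 CPM without ActD in KO (slope -0.39 ± 0.034 SE, edgeR adjusted p = 8.6e-12), and 4.90, 5.30 and 7.18 and 14.4, 13.5 and 15.4 CPM in WT (slope -0.29 ± 0.033 SE, edgeR adjusted p = 2.13e-09). Ndufaf4 had slopes of -0.17 ± 0.031 in KO and -0.15 ± 0.031 in WT, and Sdhaf1, which helps put iron-sulfur clusters into Sdhb, -0.11 ± 0.043 in KO (edgeR adjusted p = 0.0201), a call lost without the first or second KO library at 4 h of ActD. Among the 12 assembly factors 5 rose in KO and 6 in WT, and among the other 77 members 69 and 72. Of the regulators of mitochondrial biogenesis, 10 of 14 fell in KO and 9 in WT, where 35.9% and 35% of all genes fell, and 0 rose in either.

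**Figure D5:**
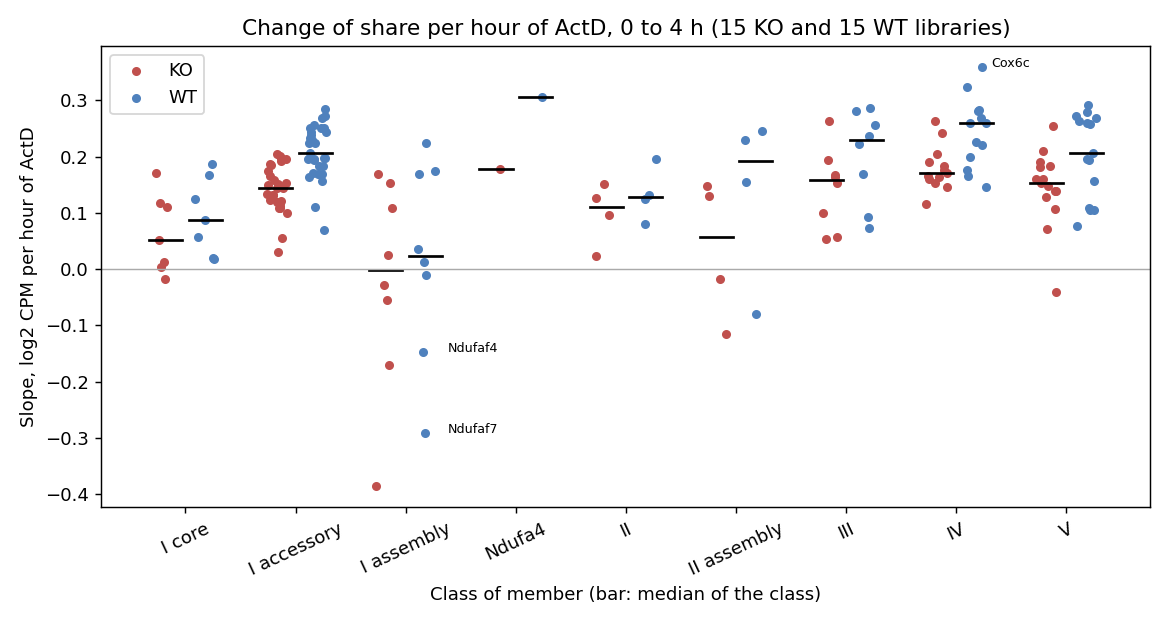
Slope of log2 CPM per hour of ActD for each member by class, KO (red) left of WT (blue), with class medians as bars (15 libraries a genotype, 0 to 4 h). Most points lie above 0, Cox6c is the highest member (0.36 in WT), and the members that fell, Ndufaf7 and Ndufaf4 in both genotypes, are complex I assembly factors, with Sdhaf1 of complex II in KO.

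These slopes also moved with length: of 2886 other genes under 1500 bases, 47.2% rose in KO and 54.6% in WT, and with the length trend removed 58 members rose and 8 fell in KO and 66 rose and 5 fell in WT, where 36.7% and 38.1% of all genes rose. Of those that then fell, 3 in KO (Ndufs7, Ndufb9 and Sdhb) and 1 in WT (Ndufs7) were subunits rather than assembly factors (Ndufs7 and Ndufb9 were chosen after their values were seen). Ribosomal scaling moved the median gene by -0.13 per hour in KO and -0.19 in WT. It left 20 members higher and 18 lower in KO and 29 higher and 19 lower in WT. The median member lay above the median gene by 0.15 and 0.19, a gap that such a scaling hardly changes and so does not test.

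No member passed the test of a genotype difference in slope. The median difference (KO minus WT) was -0.065 per hour, 84 of 89 were negative, and 21 had an unadjusted p below 0.05, against 1135 of 13378 genes, of which 0.0448% passed as higher and 0.0149% as lower. The median of 2886 other genes under 1500 bases was -0.041. With the length trend removed 0 members passed, and class medians ran from -0.080 (complex II assembly) to -0.0047 (complex I core), with Ndufa4 alone at -0.091. DESeq2 also called 0 members, and leaving out any 1 of the 30 libraries left 0. The slope differed most for Sdhaf3 (-0.17 ± 0.064) and Atp5s (-0.15 ± 0.072), with edgeR adjusted p = 0.47 and 0.587, and for Ndufa4 it was -0.13 ± 0.048 (edgeR adjusted p = 0.487).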

How the data were processed

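Per the submitters' processing notes, reads (50-base single-end, per the labels' protocols) were aligned with GSNAP to GRCm38; which program, annotation and strand setting the counting used is not given in the sources used here. Each deposited file held a whole-number count, an RPKM and a gene width per gene; tests used the counts, the RPKM entered no test, and the deposited width (unit other, in bases) gave levels per kb. Genes were named from GENCODE M21 (52489 of 52636 IDs). The labels carry no replicate numbers, so libraries were numbered in record order. No 2 libraries of a group had identical counts, and their counts differed by at least 2.40 times sampling noise (chi-square per degree of freedom).

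Counts were scaled by TMM and filtered by filterByExpr, and edgeR 4.0.16 (R 4.3.3) quasi-likelihood F tests were adjusted by Benjamini-Hochberg over all genes at 0.05. One model of the 12 groups on 36 libraries (13748 genes, common biological coefficient of variation 7.48%) gave KO minus WT in 6 conditions, 7 h minus 3 h in each genotype and its genotype difference. A second model of 30 libraries (13378 genes) gave slopes over hours of ActD. With 3 libraries a group and 24 residual degrees of freedom, counts below about the minimum of 10 give little precision.

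Alternatives were RLE scaling, scaling to ribosomal protein and elongation factor genes, a length trend per library (lowess) as offset, DESeq2 1.42.0, no filter, a stricter filter, fits of only the groups compared, slopes over 0 to 2 h, a 4 h minus 0 h contrast, and leaving out each library; leaving out 2 libraries together was added after seeing the data. Named members were, for each comparison, the smallest p of each complex and the 4 largest rises and falls, the 5 highest and 3 lowest levels, and a list of fixed genes; of other lists, the 2 smallest p at 3 h and 7 h. Some results of a named gene are not reported here. Members and lists were chosen with earlier results of these data known. The pipeline was tested on simulated counts with known changes, the same spread for every gene and no outlying libraries. That test does not bear on calls that rest on single libraries.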

Additional observations from a re-analysis of the deposited data

Results flagged for a closer look

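The change from 3 h to 7 h of R837 differed between genotypes, by the interaction term of the 12-group model (edgeR quasi-likelihood test, n = 3 libraries a group), for 4 of the genes named. In Atp5b the change in KO minus that in WT was 0.22 on the log2 scale (edgeR adjusted p = 0.0326). In Uqcrfs1 it was 0.23 (edgeR adjusted p = 0.043), with changes of 0.19 ± 0.055 in KO and -0.037 ± 0.055 in WT (SE). In Idh2, a tricarboxylic acid cycle enzyme, it was -0.25 (edgeR adjusted p = 0.0492), and in N4bp1 itself 0.38 (edgeR adjusted p = 0.0113). Of 20 alternatives, the Atp5b call was lost under 12 and the Uqcrfs1 call under 15. Members with a higher change in KO were 2.25% of the 89, against 5.45% of all genes.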

How the results depend on the processing

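No paired analysis was possible because the labels carry no replicate numbers. Named-gene results numbered 222, with 4058 values under the alternatives: 3572 kept direction and side of the threshold, 455 lost the threshold and 31 changed sign.

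Counts of called members that moved by over 1.5 times were as follows. KO minus WT gave, under ribosomal scaling, 11 at 3 h, 7, 1, 19 and 35 after 0.5, 1, 2 and 4 h of ActD, and 14 at 7 h. It gave, with the length trend removed, 20 at 3 h, 0 after 1 h of ActD and 10 at 7 h; with no filter 5 after 1 h of ActD; with only the groups compared 2, 19 and 37 after 0.5 h and 1 h of ActD and at 7 h. Without 2 libraries together (chosen after seeing the data) it gave 1 at 3 h and 17 at 4 h of ActD. The genotype difference over R837 time gave 0 under RLE, 1 under ribosomal scaling, 1 with the length trend removed and 0 without the 2 libraries at 3 h. Slopes under ribosomal scaling passed for 38 members in KO and 48 in WT. Leaving out 1 library gave 7 to 52 at 3 h, 4 to 41, 0 to 2, 15 to 45 and 35 to 59 after 0.5, 1, 2 and 4 h of ActD, 2 to 4 at 7 h, 22 to 35 and 22 to 33 over R837 time in KO and WT, 0 to 10 for its genotype difference, and 76 to 77 and 75 to 83 for slopes in KO and WT. The causes were not tested, except that each scaling moves all genes together and the smaller fits hold fewer libraries.

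Of the 31 sign changes 30 came with ribosomal scaling. KO minus WT at 3 h was 0.0049 for Sdhb and 0.039 for Atp5b. KO minus WT after 4 h of ActD was 0.016 for Sdhb, 0.00016 for Ndufs1 and 0.0011 for Ndufb5. Slopes per hour in WT were -0.11 for Sdhb, -0.055 for Sdha, -0.033 for Atp5b, -0.11 for Atp5a1, -0.10 for Uqcrc1, -0.0016 for Ndufs1, -0.022 for Ndufa10, -0.0087 for Ndufb5, -0.043 for Cox6a2, -0.020 for Cox8a, -0.12 for Uqcrfs1, -0.013 for Cox6a1, -0.033 for Sdhaf3 and -0.066 for Sdhc. Slopes per hour in KO were -0.0071 for Sdhd, -0.0052 for Atp5o, -0.014 for Ndufv3, -0.024 for Ndufb8, -0.062 for Atp5a1, -0.080 for Uqcrc1, -0.0027 for Sdhaf4, -0.014 for Cox6a2, -0.00042 for Ndufab1, -0.076 for Uqcrfs1 and -0.037 for Sdhc. With the length trend removed the WT slope of Sdhb was -0.0075. Depth limits the lowest members: Cox7c averaged 14.8 counts.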
